A study of Mus musculus with 6 samples.

Results

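The transcription factors that hold T cell identity were followed across 3 genotypes of *Ikzf3*, the gene for Aiolos. The 10 genes are *Tcf7*, *Lef1*, *Bach2*, *Satb1*, *Bcl11b*, *Runx1*, *Runx3*, *Ets1*, *Gfi1* and *Myb*. They were taken by symbol from the 25239 genes listed in each count file, and all 10 passed the filter on low counts, which left 12117 genes for testing. The cells were splenic T cells with the surface markers TCRb+CD4+CD44-CD127+, which were sorted from C57BL/6 mice. Their genotypes were *Ikzf3* +/+ (wild-type), *Ikzf3* +/N159S (heterozygous) and *Ikzf3* N159S/N159S (homozygous), with 2 libraries each. The N159S strain was made by CRISPR-Cas9 editing, so the variant is in the germ line and is present in all cells of the mouse. The age and sex of these mice are not given in the sources used here. The methods count replicates as mice, but the labels tie no library to a mouse, and the p-values measure only the spread between libraries. An exact two-sided permutation test of 2 libraries against 2 can reach no p below 0.333, and the FDRs therefore rest on a spread shared across genes. SE is the standard error.

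A naïve CD4+ T cell keeps its identity through a set of DNA-binding proteins that first act in the thymus. TCF-1, LEF-1 and BCL11B fix the T cell fate and keep it, SATB1 and ETS1 shape chromatin and activate T cell genes, and BACH2 holds back effector genes. RUNX1, RUNX3 and GFI-1 act as activators or repressors at different steps, while c-Myb is most active in immature cells. Aiolos and its relative Ikaros are zinc finger proteins that bind DNA sites with the core GGGAA, and ETS proteins bind sites with the core GGAA.

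With 2 N159S alleles, 4 of the 10 factors changed. *Myb*, *Lef1* and *Runx1* fell, by 50.4%, 34.2% and 27.4%, and *Gfi1* rose 1.87-fold. The other 6, among them *Tcf7* and *Bcl11b*, did not pass the test. With 1 N159S allele none of the 10 passed it. The test was the quasi-likelihood test of edgeR, and a gene was called changed when its false discovery rate (FDR, by Benjamini-Hochberg over the tested genes) was under 0.05. By this rule 5.26% of all tested genes were called in homozygous against wild-type T cells, 2.12% as lower and 3.14% as higher.

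The sequences before a start site of the 4 called factors are shown so that the cores of Ikaros family and ETS sites can be seen in them. Each runs 5′ to 3′ over the 250 bases before an annotated transcript start, from RefSeq on GRCm38.p6. For *Runx1* this is the proximal start, which lies inside the gene, and the window before its distal start, at the end of the gene, is not shown. For *Lef1* and *Gfi1* it is the most upstream start, and the windows before their other starts are not shown. Capitals mark GGAA or its reverse complement TTCC. All 250 bases of the *Lef1* and *Gfi1* windows lie within annotated exons, which were counted for any gene on either strand.
Myb (chr10:21160985-21161234, minus strand): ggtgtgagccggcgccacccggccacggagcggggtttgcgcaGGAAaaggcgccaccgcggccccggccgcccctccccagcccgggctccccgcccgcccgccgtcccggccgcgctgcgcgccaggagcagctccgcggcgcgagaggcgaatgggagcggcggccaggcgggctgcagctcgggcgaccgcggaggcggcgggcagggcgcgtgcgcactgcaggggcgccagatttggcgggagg
Lef1 (chr3:131110047-131110296, plus strand): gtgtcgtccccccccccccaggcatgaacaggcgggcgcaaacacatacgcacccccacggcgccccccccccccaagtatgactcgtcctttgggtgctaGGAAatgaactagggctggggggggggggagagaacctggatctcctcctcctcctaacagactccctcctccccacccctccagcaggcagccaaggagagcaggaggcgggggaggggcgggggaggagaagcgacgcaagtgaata
Runx1, before the proximal start (chr16:92697330-92697579, minus strand): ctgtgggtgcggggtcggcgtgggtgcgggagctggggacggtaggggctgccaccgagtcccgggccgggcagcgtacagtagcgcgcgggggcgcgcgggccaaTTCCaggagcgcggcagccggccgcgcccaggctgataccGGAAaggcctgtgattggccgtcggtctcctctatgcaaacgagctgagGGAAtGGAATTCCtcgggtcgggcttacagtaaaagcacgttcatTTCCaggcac
Gfi1 (chr5:107725806-107726055, minus strand): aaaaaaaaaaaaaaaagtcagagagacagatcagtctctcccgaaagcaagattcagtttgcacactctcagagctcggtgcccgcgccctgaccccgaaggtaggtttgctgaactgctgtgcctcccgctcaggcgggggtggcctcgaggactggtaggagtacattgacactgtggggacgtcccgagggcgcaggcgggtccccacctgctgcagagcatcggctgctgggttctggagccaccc

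Of the windows shown, those of *Myb* and *Lef1* each held 1 match to GGAA on either strand. That of *Runx1* held 6 and that of *Gfi1* held 0. The windows not shown held 1, 4 and 2 matches for *Lef1*, 4 for *Runx1* and 4 for *Gfi1*. The first of these *Lef1* windows (chr3:131110073-131110322) overlaps the one shown, and its match is the same site. The longer core GGGAA, which contains GGAA, was found 1 time in the *Runx1* window and 0 times in the other windows shown. RefSeq windows were at hand for 9 of the 10 factors, 20 windows in all, some of which overlap. GGGAA was found in 10 of these 20 windows, which belong to 5 of the 9 genes, and in 56.2% of 32851 windows over all genes. GGAA was found in 18 of the 20 and in 93.4% of all windows. The RUNX core TGTGGT was found in 1 window of the factors and in 14% of all, and the TCF and LEF core CTTTGA in 3 and in 13.8%. All searches covered both strands, and a match describes the letters only.

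The libraries held 11696461 to 17317260 reads on genes, and the 10 factors took 0.507 to 0.676% of them. Normalised counts are reads scaled by TMM to the mean library size. Between 14803 and 18147 genes had a read in a library. In each genotype 1 library had fewer genes (14803 to 15888) than the other (16873 to 18147). *Ikzf3* itself had normalised counts of 2351 and 2312 in wild-type, 2511 and 2278 in heterozygous and 2950.2 and 3032 in homozygous T cells, and these counts do not tell the alleles apart. *Xist*, which is transcribed from the inactive X chromosome, was at 731 and 824 CPM in the heterozygous libraries and at 0.773 to 1.98 CPM in the other 4, so sex and the heterozygous genotype cannot be told apart. The T cell label was borne out by *Cd3e*, at 284 to 429 CPM, and *Cd4*, at 681 to 994 CPM. Summed B cell markers stood at 155 to 230 CPM in wild-type, 359 to 593 in heterozygous and 102 to 150.4 in homozygous libraries. In bulk libraries, fewer cells of a kind and less RNA per cell cannot be told apart.

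*Myb* encodes c-Myb, which is needed for the growth of immature T cells and is low in resting ones. Its normalised counts were 296 and 267 in wild-type, 221 and 213 in heterozygous and 145 and 132 in homozygous T cells. The 3 genotypes formed 3 steps with no overlap, and *Myb* was the only one of the 10 factors with such a fall at both steps, a pattern that 3.67% of all tested genes showed. The log2 fold change in homozygous against wild-type T cells was −1.01 (SE 0.16, FDR = 0.00374 by edgeR). In heterozygous against wild-type T cells it was −0.37 (SE 0.15, FDR = 0.245), and in homozygous against heterozygous T cells −0.64 (SE 0.16, FDR = 0.0793), so neither single step passed the test. The call in homozygous T cells held under all 15 alternative settings, with each library left out in turn among them, at FDRs up to 0.0315. *Myb* lies on chromosome 10 of GRCm38.p6 (the build of mm10, as are the positions below) from 21124930 to 21160984 on the minus strand, and 491 bases of its exons are also covered by *Gm26577* on the opposite strand, which the count files do not list. Whether the counting used strand is not given in the sources used here, so reads from such a partner cannot be told apart.

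Some other genes that mark immature T cells also fell in homozygous T cells. Of 8 listed markers of immature T cells 5 were tested, and 4 of them fell, namely *Dntt*, *Cd1d1*, *Sox4* and *Cd24a*. *Arpp21* was tested but not called (log2 fold change −0.74, FDR = 0.634 by edgeR). *Dntt*, which encodes the enzyme that adds bases at V(D)J joins, had normalised counts of 131 and 119 in wild-type, 19.4 and 41.5 in heterozygous and 3.48 and 8.77 in homozygous T cells. *Dntt* fell in both, with log2 fold changes of −4.39 in homozygous (SE 0.45, FDR = 0.000241) and −2.05 in heterozygous T cells (SE 0.32, FDR = 0.0117). *Sox4* fell by 0.92 on the log2 scale in homozygous T cells (FDR = 0.0143). The summed level of the 8 markers was 98.1 to 107 CPM in wild-type, 77.4 to 93.0 in heterozygous and 50.1 to 54.7 in homozygous libraries. Most of this sum came from *Cd1d1* (26.4 to 48.5 CPM over the 6 libraries) and *Sox4* (17.6 to 44.5 CPM). *Ptcra* and the recombination genes *Rag1* and *Rag2* were not tested and were at 0 to 0.513 CPM in all 6 libraries. *Rag1* was at 0.0859 and 0.269 CPM in wild-type and at 0.233 and 0.513 CPM in homozygous libraries. The part of immature T cells in the *Myb* values was not tested, nor was that of B cells in the marker values.

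*Lef1* and *Tcf7* encode the related factors LEF-1 and TCF-1, which bind the same DNA core and share functions in naïve T cells. The normalised count of *Lef1* was 8754 and 7165 in wild-type, 5839.7 and 7391 in heterozygous and 4609 and 5864 in homozygous T cells. Both homozygous libraries lay below both wild-type libraries, while the heterozygous ones overlapped with each side. The log2 fold change was −0.60 (SE 0.15, FDR = 0.0391 by edgeR) in homozygous and −0.27 (SE 0.15, FDR = 0.408) in heterozygous T cells. The first value held its call under the 9 other settings but lost it without wild-type replicate 1 (FDR = 0.243), wild-type replicate 2 (FDR = 0.0515) or homozygous replicate 1 (FDR = 0.255). The heterozygous value was −0.12 without wild-type replicate 1, −0.11 without heterozygous replicate 1, −0.40 without wild-type replicate 2 and −0.44 without heterozygous replicate 2. *Lef1* lies on chromosome 3 from 131110297 to 131224357, and 1208 bases of its exons are shared with *Gm43352* on the opposite strand, which is not among the listed genes.

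*Tcf7* did not pass the test. Its normalised counts were 25496 in both wild-type libraries, 26917 and 23584 in heterozygous and 26052 and 26478 in homozygous T cells. The homozygous libraries lay just above the wild-type ones. The log2 fold change was 0.04 in homozygous T cells, with a 95% interval from −0.20 to 0.28 (FDR = 0.894 by edgeR), and −0.01 in heterozygous T cells, from −0.25 to 0.23 (FDR = 0.967). Per exon length, the ratio of *Lef1* to *Tcf7* within a library was 0.257 and 0.210 in wild-type, 0.162 and 0.235 in heterozygous and 0.132 and 0.166 in homozygous T cells. The homozygous ratios lay below both wild-type ratios. *Tcf7* lies on chromosome 11 from 52246527 to 52283383.

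*Runx1* and *Runx3* encode factors of 1 family that bind the same core; RUNX1 acts in CD4+ cells and precursors, and RUNX3 is best known in CD8+ and cytotoxic cells. The normalised count of *Runx1* was 1793 and 1578 in wild-type, 1603 and 1482 in heterozygous and 1180.2 and 1265.5 in homozygous T cells. Both homozygous libraries lay below the other 4, and the heterozygous libraries overlapped with wild-type. The log2 fold change was −0.46 (SE 0.10, FDR = 0.0259 by edgeR) in homozygous, −0.13 (SE 0.10, FDR = 0.587) in heterozygous and −0.34 (SE 0.10, FDR = 0.170) in homozygous against heterozygous T cells. The call in homozygous T cells held under the 9 other settings and was lost without any 1 of the 4 libraries compared, at FDRs of 0.215 and 0.0609 without wild-type replicate 1 or 2 and of 0.182 and 0.0952 without homozygous replicate 1 or 2. The heterozygous value was −0.033 without wild-type replicate 1, −0.22 without wild-type replicate 2 and −0.068 without heterozygous replicate 2. *Runx1* lies on chromosome 16 from 92601466 to 92826074 and shares 106 exon bases with *Gm26626* on the opposite strand, which is not listed.

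*Runx3* did not pass the test. Its normalised counts were 1192 and 2149 in wild-type, 1529 and 1222 in heterozygous and 2384 and 1853 in homozygous T cells. The wild-type libraries differed 1.80-fold, the widest gap between libraries of 1 genotype among the 10 factors, and the homozygous libraries overlapped with them. The log2 fold change was 0.34 (95% interval −0.15 to 0.82, FDR = 0.471 by edgeR) in homozygous and −0.29 (−0.77 to 0.20, FDR = 0.569) in heterozygous T cells. Without wild-type replicate 1 the homozygous value was −0.02 (FDR = 0.982), and without wild-type replicate 2 it was 0.83 (FDR = 0.0457). Without homozygous replicate 1 or 2 it was 0.14 or 0.52. The heterozygous value was −0.64 or 0.21 without wild-type replicate 1 or 2, and −0.46 or −0.13 without heterozygous replicate 1 or 2. Per exon length the ratio of *Runx3* to *Runx1* was 1.19 and 2.43 in wild-type, 1.70 and 1.47 in heterozygous and 3.60 and 2.61 in homozygous T cells. Both homozygous ratios lay above the others, but the lower of them, 2.61, was close to the wild-type value of 2.43. How often other pairs of genes part in this way was not tested. *Cd8b1*, a CD8 chain gene, fell in homozygous T cells from 301 and 197 normalised counts to 47.0 and 30.7 (log2 fold change −2.63, standard error 0.30, FDR = 0.000502), and *Cd4* did not pass the test. *Runx3* lies on chromosome 4 from 135120645 to 135177990.

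*Gfi1* encodes the repressor GFI-1, which recruits the histone demethylase LSD1 and its partner CoREST. Its normalised counts were 169.7 and 286 in wild-type, 332 and 283 in heterozygous and 498 and 361 in homozygous T cells. Both homozygous libraries lay above the other 4, and the heterozygous libraries overlapped with wild-type. *Gfi1* rose in homozygous T cells with a log2 fold change of 0.90 (SE 0.22, FDR = 0.0410 by edgeR), and the value in heterozygous T cells was 0.41 (SE 0.23, FDR = 0.409). The call was lost without wild-type replicate 1 (0.60, FDR = 0.231), where the change was also more than 1.5 times smaller, without homozygous replicate 1 (0.64, FDR = 0.262) and with the replicate number as a block (0.89, FDR = 0.0654). Without wild-type replicate 2 the log2 fold change was 1.35 (FDR = 0.0184). The heterozygous value was 0.11 without wild-type replicate 1, and 0.86 without wild-type replicate 2. *Gfi1* lies on chromosome 5 from 107716655 to 107725805, with few reads (132 to 572 in a library), and 19 bases of its exons overlap *A430072P03Rik* on the opposite strand.

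*Ets1*, *Satb1* and *Bcl11b* did not pass the test in either comparison. *Ets1* encodes the ETS factor that activates many T cell genes, and its normalised counts were 35371 and 28453 in wild-type, 23103.5 and 27890.3 in heterozygous and 20735 and 27262 in homozygous T cells. *Satb1* encodes a chromatin organiser, with 17740.1 and 15427 in wild-type, 12967.5 and 15860.2 in heterozygous and 12348.5 and 14521.5 in homozygous T cells. *Bcl11b*, whose product fixes the T cell fate, had 8002 and 7328.5, then 6484 and 7367, then 6086 and 6234 normalised counts. In all 3 genes both homozygous libraries lay below both wild-type libraries, a pattern of 23.9% of all tested genes. The log2 fold changes in homozygous T cells were −0.41 for *Ets1* (SE 0.16, FDR = 0.189), −0.30 for *Satb1* (SE 0.13, FDR = 0.244) and −0.32 for *Bcl11b* (SE 0.10, FDR = 0.113), by edgeR's quasi-likelihood test. In heterozygous T cells they were −0.32, −0.20 and −0.15, with FDRs of 0.342, 0.479 and 0.511. Without homozygous replicate 1 or wild-type replicate 1, the homozygous values were −0.23 or −0.25 for *Ets1* and −0.19 or −0.20 for *Satb1*. Without wild-type replicate 1 or heterozygous replicate 1, the heterozygous values were −0.16 or −0.20 for *Ets1*, −0.099 or −0.067 for *Satb1* and −0.083 or −0.059 for *Bcl11b*, and without heterozygous replicate 2 they were −0.35 for *Satb1* and −0.24 for *Bcl11b*. Without the filter on low counts *Ets1* was called in homozygous T cells (FDR = 0.0186). *Ets1* lies on chromosome 9 from 32636241 to 32757820, *Satb1* on chromosome 17 from 51736187 to 51833290 and *Bcl11b* on chromosome 12 from 107910403 to 108004145. *Satb1* shares 156 and 128 exon bases with *Gm36931* and *Gm6934*, which the files do not list.

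*Bach2* encodes a repressor that keeps effector genes off in naïve T cells and pairs with small Maf proteins. Its normalised counts were 2776 and 2573 in wild-type, 2075 and 2435 in heterozygous and 2364 and 2568 in homozygous T cells. The heterozygous mean was the lowest of the 3 genotypes, and the homozygous libraries were below the wild-type ones by a narrow margin. The log2 fold change was −0.25 (SE 0.11, FDR = 0.281 by edgeR) in heterozygous and −0.12 (95% interval −0.35 to 0.12, FDR = 0.629) in homozygous T cells. The heterozygous value was −0.14 without heterozygous replicate 1, and the homozygous value −0.062 or −0.058 without wild-type replicate 1 or homozygous replicate 1. The antisense gene *Bach2os* shares 6.04% of the *Bach2* exon bases and had 23 to 36 reads. *Bach2* lies on chromosome 4 from 32238413 to 32586109.

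**Figure D1:**
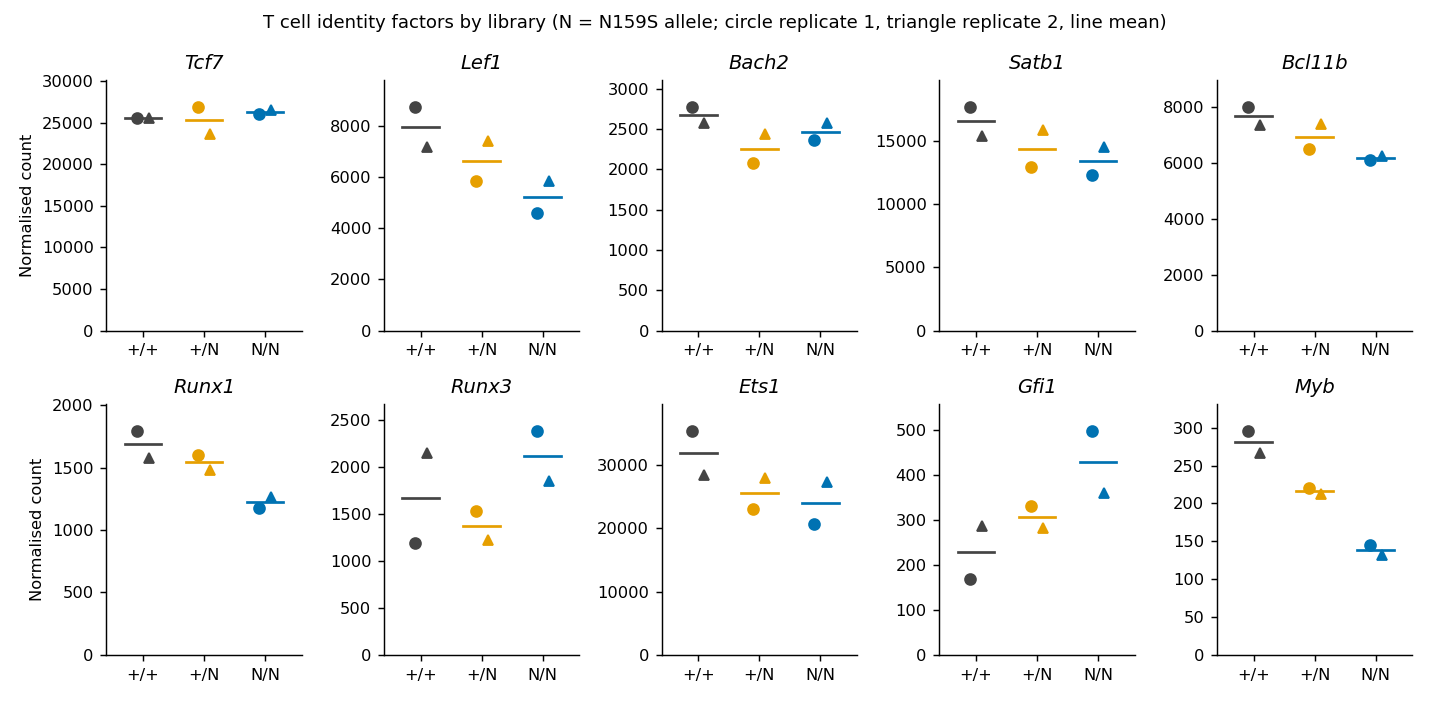
Normalised counts of the 10 factors (y axes from 0) in the 2 libraries of each genotype (x axes; +/+ wild-type, +/N heterozygous, N/N homozygous), with a circle for replicate 1, a triangle for replicate 2 and a line at the mean. *Myb* goes down in 3 separate steps from 296 and 267 to 145 and 132. The homozygous libraries lie below the wild-type ones in 7 of the 10 panels, a pattern of 23.9% of all tested genes.

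Over the 10 factors, both homozygous libraries lay below both wild-type libraries in 7, above them in 2 (*Gfi1* and *Tcf7*) and overlapped in 1 (*Runx3*), where 23.9% of all tested genes lay below and 24.3% above. Both heterozygous libraries lay below both wild-type ones in 3 (*Bach2*, *Ets1* and *Myb*) and above them in 0, where 22.1% of all tested genes lay below and 25% above. The median log2 fold change of the factors was −0.31 in homozygous and −0.22 in heterozygous T cells, beside 0.00038 and 0.011 over all tested genes.

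In heterozygous against wild-type T cells 0 of the 10 factors passed edgeR's quasi-likelihood test and 0 passed DESeq2, where edgeR called 1.75% of all tested genes, 0.602% as lower and 1.15% as higher. The unadjusted p was under 0.05 for 2 of the factors (*Bach2* and *Myb*) and for 16.3% of all tested genes. In homozygous against heterozygous T cells 0 of 10 passed with edgeR and 0 with DESeq2 (1.66% of all tested genes with edgeR). The unadjusted p was under 0.05 for 5 factors (*Lef1*, *Runx1*, *Runx3*, *Gfi1* and *Myb*) and for 12% of all tested genes. The heterozygous mean lay between the other means in 7 of the 10 factors. A departure of the heterozygous level from the midpoint of the others on the log2 scale was called in 0 factors with either tool, beside 1.03% of all tested genes with edgeR. The unadjusted p of this departure was under 0.05 for *Runx3* alone, and for 11.5% of all tested genes. These comparisons share libraries.

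**Figure D2:**
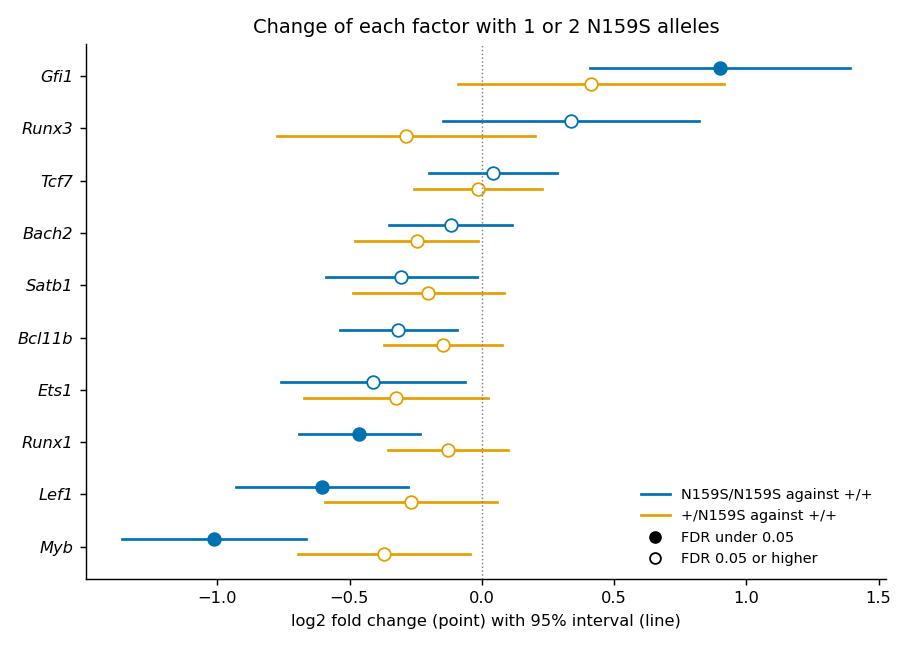
Log2 fold change of each factor (x axis; point, with its 95% interval as a line) in homozygous (blue) and heterozygous (orange) against wild-type T cells, with filled points for an FDR under 0.05. Only *Myb*, *Lef1*, *Runx1* and *Gfi1* in homozygous T cells have filled points, from −1.01 for *Myb* to 0.90 for *Gfi1*.

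Per exon length the factors spanned a wide range of levels. In wild-type T cells *Tcf7* stood highest, at 649 RPKM (CPM, scaled by TMM, per kilobase of exon), followed by *Ets1* at 420 ± 64.3 RPKM (SD, n = 2 here and below), *Lef1* at 152 ± 21.4, *Satb1* at 96.4 ± 9.51 and *Bcl11b* at 63.1 ± 3.92. These 5 levels did not overlap between neighbours. *Runx3* was at 26.7 ± 10.8 RPKM, *Bach2* at 20.1 ± 1.08 and *Runx1* at 15.1 ± 1.36, and *Runx3* overlapped with *Bach2*. *Myb*, at 4.98 ± 0.361 RPKM, and *Gfi1*, at 4.90 ± 1.77 RPKM, were the lowest and overlapped with each other. In homozygous T cells these last 2 parted, to 2.45 ± 0.174 RPKM for *Myb* and 9.24 ± 2.09 RPKM for *Gfi1*, whose libraries (7.76 and 10.7 RPKM) then overlapped with those of *Runx1* (10.6 and 11.3 RPKM).

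**Figure D3:**
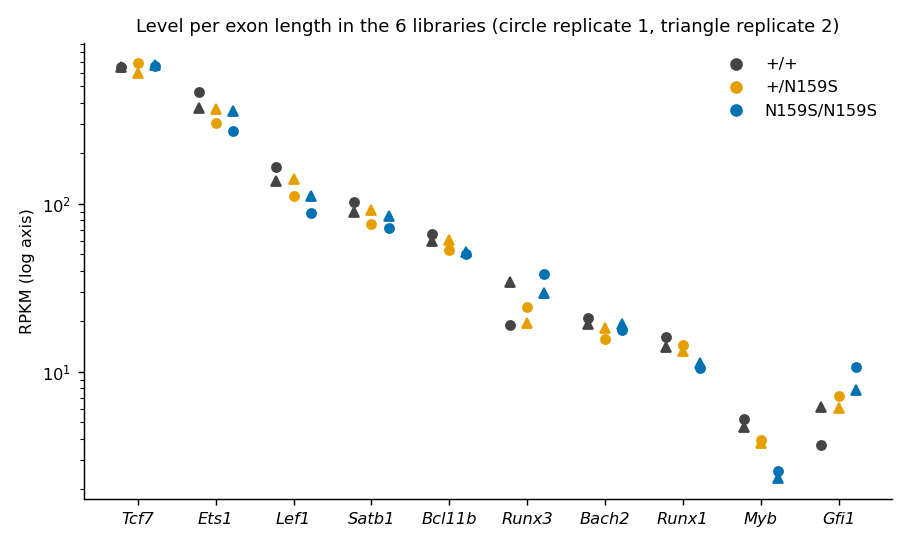
Level per exon length (y axis, RPKM on a log axis) of the 10 factors in the 6 libraries, ordered by their wild-type mean and coloured by genotype, with a circle for replicate 1 and a triangle for replicate 2. *Tcf7* is at the top of the range in each library, and *Myb* and *Gfi1* overlap in wild-type but not in homozygous T cells.

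The 2 libraries of a genotype differed in a repeated way. *Lef1*, *Bach2*, *Satb1*, *Bcl11b* and *Ets1* were lower in the library with fewer genes detected in all 3 genotypes, a pattern of 21.8% of all tested genes. *Runx3* and *Gfi1* were higher in it in all 3, a pattern of 20.4% of all tested genes. For *Ets1* the log2 ratio of the library with fewer to the library with more genes was −0.31 in wild-type, −0.27 in heterozygous and −0.39 in homozygous T cells. For *Runx3* it was 0.85, 0.32 and 0.36. The other 3, *Tcf7*, *Runx1* and *Myb*, had no such repeated sign, and their ratios were between −0.18 and 0.19.

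With a term for this split in the edgeR fit, 8 of the 10 factors were called in homozygous against wild-type T cells, where 14.5% of all tested genes were called. *Satb1* (FDR = 0.00534), *Bcl11b* (FDR = 0.00358), *Runx3* (FDR = 0.0106) and *Ets1* (FDR = 0.000548) were then called beside the 4 named above, with log2 fold changes of −0.31, −0.31, 0.37 and −0.42. *Tcf7* and *Bach2* were not. In heterozygous against wild-type T cells 3 were called with this term, as lower, *Lef1* (−0.27, FDR = 0.0126), *Bach2* (−0.25, FDR = 0.0278) and *Ets1* (−0.32, FDR = 0.00824), where 11.7% of all tested genes were. In homozygous against heterozygous T cells 5 were called (*Lef1*, *Runx1*, *Runx3*, *Gfi1* and *Myb*), where 7.24% of all tested genes were. The split was read from the libraries themselves and is not a batch that the labels name, so these calls are given beside those without the term and not in their place.

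**Figure D4:**
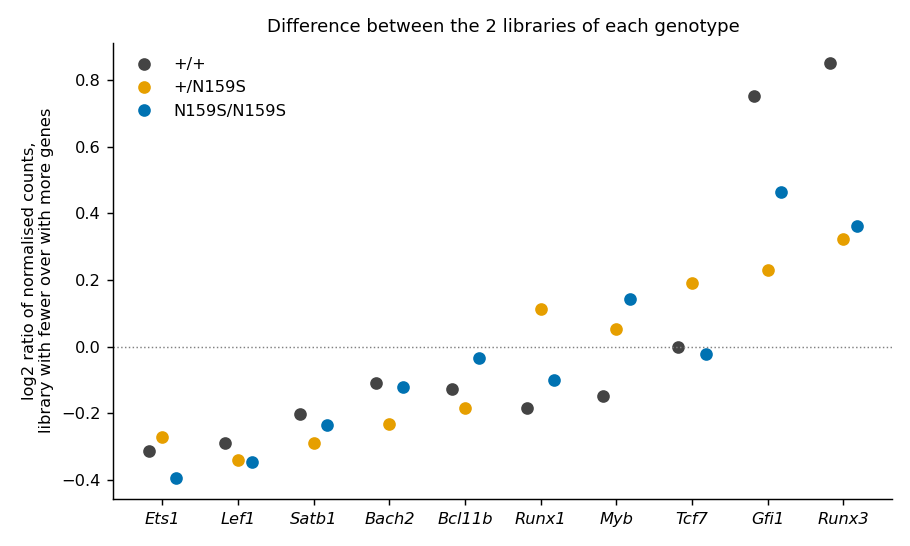
Log2 ratio of normalised counts between the library with fewer and the library with more genes detected (y axis) for each factor (x axis), with 1 point per genotype. All 3 points are below 0 for *Ets1*, *Lef1*, *Satb1*, *Bach2* and *Bcl11b* and above 0 for *Gfi1* and *Runx3*, and the widest is 0.85 for *Runx3* in wild-type T cells.

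Relatives of the factors in the same protein families were looked at next. Of 11 listed relatives 8 were tested and 0 were called by edgeR in homozygous T cells, with a median log2 fold change of −0.17. In heterozygous T cells 2 of the 8 were called. *Bcl11a*, a relative of *Bcl11b* that is known for B cell development, rose from 43.7 and 61.4 to 112 and 169 normalised counts (log2 fold change 1.38, standard error 0.28, FDR = 0.0323). It moved with the summed B cell markers given above, and their part in it was not tested. *Ets2*, a relative of *Ets1*, fell from 1409 and 1229 to 800.4 and 953 (log2 fold change −0.59, standard error 0.12, FDR = 0.0330).

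Of 14 listed cofactors of the factors 13 were tested, and 1 was called in homozygous and 0 in heterozygous T cells. *Tle1*, a Groucho-type corepressor that TCF-1, LEF-1 and RUNX proteins can recruit, rose in homozygous T cells. Its normalised counts were 217 and 249 in wild-type, 298 and 334 in heterozygous and 399.8 and 381 in homozygous T cells. The log2 fold change was 0.74 (standard error 0.14, FDR = 0.0113 by edgeR) in homozygous T cells. In heterozygous T cells it was 0.43 and did not pass the test (standard error 0.14, FDR = 0.165). *Cbfb*, the partner of both RUNX proteins, was not called (log2 fold change 0.04, FDR = 0.906), and neither were *Kdm1a* and *Rcor1*, which encode LSD1 and CoREST (0.01 and 0.01, FDRs of 0.988 and 0.977). The median of the cofactors was 0.03 in homozygous and −0.05 in heterozygous T cells.

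All 20 of the other listed T cell factors were tested, and 1 rose and 1 fell in each comparison. In homozygous T cells *Klf2*, which drives genes for lymphocyte recirculation, rose by 0.54 on the log2 scale (FDR = 0.0195), and *Sox4* fell as given above. In heterozygous T cells *Ikzf2*, the gene for Helios, rose by 0.83 (FDR = 0.0230), and *Zfp36l2*, which encodes an mRNA-decay protein, fell by 0.93 (FDR = 0.00453). The medians of this list were −0.02 and −0.09.

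The naïve programme holds genes that several of the factors are known to sustain. All 15 listed genes were tested, and in homozygous T cells 12 were not called, with a median of −0.0057 over the list. *Dapl1* fell by 1.01 and *Tspan32* rose by 0.46 in homozygous T cells (FDRs of 0.0127 and 0.0177). In heterozygous T cells *Il7r*, the gene for the sorted marker CD127 (log2 fold change −0.49, FDR = 0.0368), fell and *Itgae* rose (1.39, FDR = 0.0299).

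Of 20 genes of the effector programme, many of which BACH2, TCF-1 or GFI-1 are known to repress, 17 were tested. In homozygous T cells *Gzma* (log2 fold change 2.64, FDR = 0.0433) and *Bhlhe40* (1.16, FDR = 0.0455) rose. There *Il2rb*, a receptor chain for IL-2 and IL-15, fell from 363 and 501 to 156 and 145 normalised counts (−1.53, FDR = 0.000436), and 14 were not called. The median of the 17 was −0.43. *Gzma* had few normalised counts, 6.43 and 6.04 in wild-type and 34.0 and 46.1 in homozygous T cells. In heterozygous T cells *Maf*, *Cxcr3* and *Klrg1* rose, by 1.37 to 2.39 on the log2 scale (FDRs of 0.00758 to 0.0373). *Klrg1* also had few normalised counts, 7.71 and 5.04 in wild-type and 33.6 and 32.8 in heterozygous T cells. In this comparison 0 fell, and the median was 1.01. Summed regulatory T cell markers were 121 to 139 CPM in heterozygous libraries and 85.3 to 92.5 CPM in the others. The part of such cells in these values was not tested. Nor was their part in the values of *Ikzf2*, *Itgae* and *Il7r* in heterozygous T cells given above.

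Markers of other cells were measured too. Of 10 B cell markers 4 fell in homozygous T cells (*Fcer2a*, *Ms4a1*, *Cd79a* and *Cr2*), and in heterozygous T cells 4 rose (*Cd74*, *Cr2*, *Cd79b* and *Cd79a*) and *Fcer2a* fell. By flow cytometry the paper reports less CD23 and CD21, the products of *Fcer2a* and *Cr2*, on homozygous splenic B cells in marrow chimeras. The values of *Fcer2a* and *Cr2* therefore need not follow the number of B cells. Of 5 tested NK and cytotoxic markers *Cd8b1* fell and *Gzma* rose in homozygous T cells. The sum over all 8 listed NK and cytotoxic markers was 21.2 to 25.3 CPM in wild-type, 20.0 to 21.6 in heterozygous and 7.40 to 7.68 in homozygous libraries. Of this sum *Cd8b1* alone held 20.1 and 13.2 CPM in wild-type, 12.4 and 8.76 in heterozygous and 3.14 and 2.05 in homozygous libraries. *Gzma* held 0.429 and 0.404 CPM in wild-type and 2.27 and 3.08 in homozygous libraries. None of 8 T cell, 7 myeloid, 2 erythroid and 5 regulatory T cell markers tested was called in either comparison. Summed myeloid markers were 41.7 to 57.1 CPM, and the 4 globin genes were at 0 in all 6 libraries. The part of such cells in the values of the 10 factors was not tested.

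**Figure D5:**
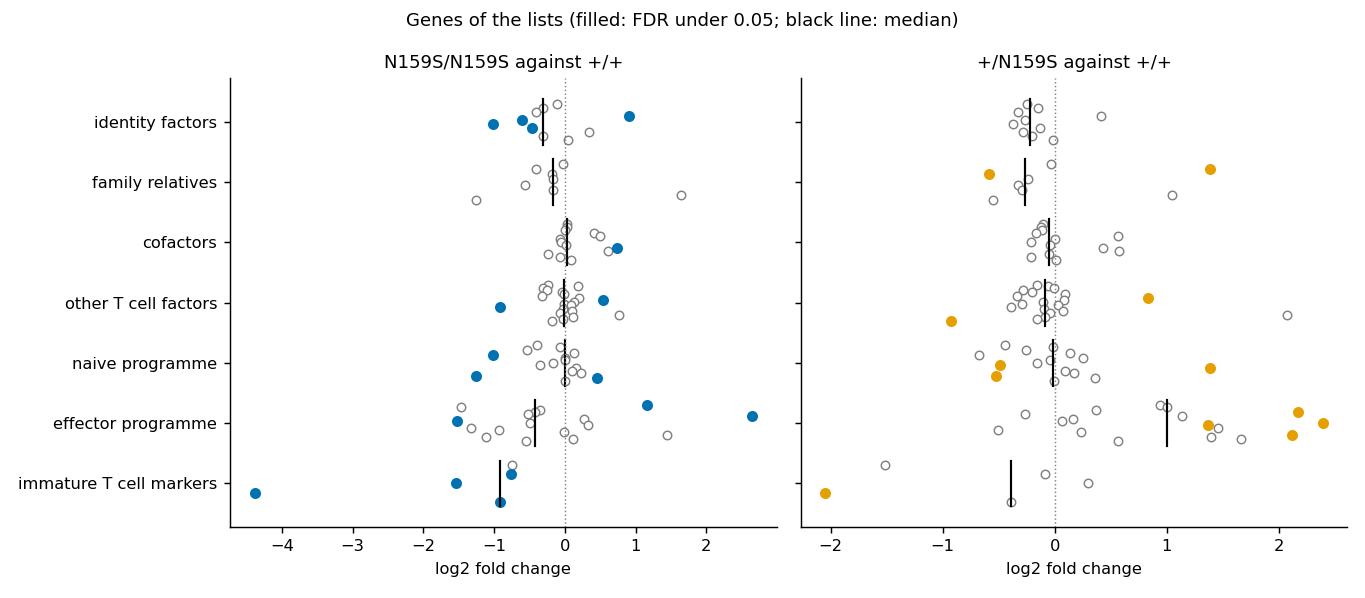
Log2 fold changes (x axes) of the tested genes of 7 lists (y axis) in homozygous (left) and heterozygous (right) against wild-type T cells, with filled points for an FDR under 0.05 and a black line at each list's median. The identity factors have a median of −0.31 on the left with 4 filled points, and the cofactors one of 0.03 with 1 filled point.

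The tested genes whose levels ran most like a called factor over the 6 libraries were taken from 7510 genes with a mean of at least 4 log2 CPM. They were *Tbxa2r* and *Ly6a* for *Myb* (Pearson's r of 0.999 and 0.992), *Zfp518a* and *Hnrnph1* for *Lef1* (0.994 and 0.994), *Scp2* and *Trim12a* for *Runx1* (0.999 and 0.996) and *Cyth3* and *Iqsec1* for *Gfi1* (0.995 and 0.993). With 6 libraries and this many candidates high values occur in any search, and the points share genotype and library differences, so these values describe the libraries only.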

How the data were processed

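RNA-seq counts of 6 libraries of sorted splenic T cells, 2 per *Ikzf3* genotype by the labels, were used. The authors trimmed reads with Trimmomatic (0.38.1), mapped them to mm10 with HISAT2 (2.2.1) and counted them per refGene gene with HTSeq (2.0.2). The authors deposited raw counts per gene, without normalization. Entries that name no gene were left out of library sizes. Of all counts, those of these entries included, 50.7 to 57.7% in a library were on genes. Libraries of 1 genotype differed by more than counting error (chi-square over its degrees of freedom 9.98 to 13.4).

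Counts were fitted in R 4.3.3 with edgeR 4.0.16 (filterByExpr on genotype with a minimum count of 10 and a minimum total of 15, TMM, quasi-likelihood test, 1 coefficient per genotype, 6 libraries in 1 fit) and adjusted by Benjamini-Hochberg over 12117 genes. The standard error is the fold change over the root of its statistic. RPKM used the merged exon length of each gene in the GENCODE annotation of GRCm38. DESeq2 1.42.0 was an alternative. The code was tested on simulated data. The 10 factors were named in full, list genes where called (some are not reported here), and for each called factor the 2 genes most like it. The factors, lists, tests and alternatives were chosen with earlier results of these data known. Replicate numbers were not used to pair the libraries in the main fit.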

Additional observations from a re-analysis of the deposited data

How the results depend on the processing

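In homozygous against wild-type T cells, 4 of the 10 factors were called, and the same 4 genes were called with DESeq2, its size factors, at least 10 reads in every library, the likelihood ratio test, the earlier quasi-likelihood test or a fit of only the 2 genotypes. Without a filter on low counts 5 were called. An FDR under 0.01 left 1 (*Myb*), the split by genes detected gave 8, and leaving out 1 library gave 1 to 4. In heterozygous against wild-type T cells the count was 0, and 3 with that split. In homozygous against heterozygous T cells it was 0, and 2 without a filter (*Runx3* and *Myb*), 1 with the likelihood ratio test (*Myb*) and 5 with the split. Departures from the midpoint were 0, and 1 (*Runx3*) without a filter or with the split. Fold changes turned in 3 cases, none of them called when turned, namely *Runx3* in homozygous T cells (−0.018 without wild-type replicate 1, 0.83 without replicate 2), *Tcf7* in heterozygous T cells (0.081 without heterozygous replicate 2, −0.12 without replicate 1) and *Runx3* in heterozygous T cells (0.21 without wild-type replicate 2, −0.64 without replicate 1). Fits that left out a library assume that the lone library of a genotype varies like the others.

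With the replicate number as a replicate block, 3 factors were called in homozygous against wild-type T cells (*Gfi1* was lost) and 0 in each of the other 3 comparisons. The deviations of same-numbered libraries of 2 genotypes had correlations of −0.167, −0.216 and 0.238. These values cannot show whether such libraries share more than a number. *Gfi1* and *Myb* had the fewest reads of the factors (120 to 572 in a library), and whether depth limits their values was not tested. The causes of the changes between settings were not tested.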
